A study of Mus musculus with 6 samples.

Results

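The genes described here are 36 genes of the p53 pathway, out of 54109 genes listed in the count tables. They were chosen by name from what is known of the pathway, with earlier results of these data also known. They are p53 and its relatives, genes that p53 switches on, and regulators that feed back on it. All 36 matched a single Ensembl ID. Their mRNA was measured in 6 cultures of Msc80, a mouse Schwann cell line grown in serum. The first 3 cultures, called Sox10ko, are labelled as clonal Msc80 cells with Sox10 inactivated by CRISPR/Cas9 editing. Sox10 is the gene of a transcription factor of neural crest and glia. The other 3, called control, are Msc80 cells labelled as wild type for Sox10. Whether the Sox10ko cultures share 1 clone or come from several is not stated, so the loss of Sox10 and a difference between clones cannot be told apart. How the biological replicates of a group were kept apart is not given, so the p-values measure only the spread between these cultures, which may be technical.

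p53, encoded by Trp53, is a transcription factor that is held at a low protein level by the ubiquitin ligase Mdm2 and its partner Mdm4. DNA damage or oncogene activity frees it from them, in the second case through the Arf protein encoded by Cdkn2a, and p53 then switches on genes that stop the cell cycle, start apoptosis or repair DNA. It also switches on Mdm2, Ppm1d and Ccng1, which act against it and close a feedback loop. Because p53 is regulated mainly through the stability of its protein, the level of its mRNA is no measure of its activity. Loss of the pathway is common in malignant tumours of the peripheral nerve sheath.

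Libraries held 32328618 to 41529422 counted reads in Sox10ko and 37473994 to 41834431 in control. Sox10 itself stood at 88.7 ± 25.1 CPM in Sox10ko and 617 ± 10.5 CPM in control (SD, n = 3 each), where CPM is the read count scaled to the TMM-adjusted library size. Counts per gene do not show whether the remaining transcripts carry the edit. A list of 10 Schwann cell markers was lower in Sox10ko for all 10 genes, with a summed level of 110 to 161 CPM in Sox10ko and 4693 to 5279 CPM in control. Markers of other cell types moved as well. The 6 smooth muscle markers summed to 120 to 671 CPM in Sox10ko and 0.948 to 1.17 CPM in control, and the 6 epithelial markers to 75.2 to 103 CPM in Sox10ko and 0.0813 to 0.256 CPM in control. The 8 fibroblast markers summed to 658 to 1910 CPM in Sox10ko and 285 to 335 CPM in control, and the 7 macrophage markers to 9.65 to 13.4 CPM in Sox10ko and 5.48 to 7.29 CPM in control, with Itgam at 0 reads everywhere. The 6 endothelial markers summed to 0.389 to 0.728 CPM in Sox10ko and 2.13 to 2.39 CPM in control. Past the threshold by edgeR were 5 of 6 tested smooth muscle markers, 2 of 2 epithelial, 2 of 4 fibroblast and 1 of 2 macrophage markers, all higher, and 1 of 2 endothelial markers, which was lower; markers left untested had too few reads. Epithelial markers had too few reads in control to pass the filter on low counts there, so a tested one could only be called higher. For smooth muscle and endothelial markers with few reads in 1 group, the direction may be set by this filter in the same way. The summed levels move with the groups compared below, and their part in the p53 results was not tested. In bulk RNA of this kind, fewer cells of a type and less RNA per cell cannot be told apart.

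The stretches that follow lie upstream of members and hold matches to the consensus of the p53 response element. They are shown as examples of that consensus; binding of p53 was not measured. The first 5 are from members that rose in Sox10ko, and the last is from Bax, which did not pass the test. The full element is made of 2 copies of a 10-base consensus, and the stretches of Mdm2, Polk and Sesn1 hold a single copy. Capitals mark an exact match to that 10-base consensus or, where there is one, a pair of copies at most 1 base apart with at most 2 mismatches. The consensus reads the same on both strands. Sequences are from RefSeq on GRCm38.p6 and run 5′ to 3′ on the strand of the gene.
Cdkn1a, chr17:29090886-29090965, plus strand: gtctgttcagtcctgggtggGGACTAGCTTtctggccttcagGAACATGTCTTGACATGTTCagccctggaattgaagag
Ccng1, chr11:40755433-40755512, minus strand: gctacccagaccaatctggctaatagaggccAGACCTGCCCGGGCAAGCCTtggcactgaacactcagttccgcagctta
Mdm2, chr10:117710901-117710980, minus strand: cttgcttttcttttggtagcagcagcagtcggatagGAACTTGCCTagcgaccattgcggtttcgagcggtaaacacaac
Polk, chr13:96519358-96519437, minus strand: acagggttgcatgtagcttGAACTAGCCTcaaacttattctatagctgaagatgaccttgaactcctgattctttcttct
Sesn1, chr10:41887230-41887309, plus strand: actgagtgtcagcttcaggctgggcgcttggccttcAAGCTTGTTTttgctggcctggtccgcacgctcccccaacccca
Bax, chr7:45467050-45467129, minus strand: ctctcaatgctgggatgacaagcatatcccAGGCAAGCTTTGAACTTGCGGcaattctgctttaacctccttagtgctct

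The stretches of Cdkn1a, Ccng1 and Mdm2 overlap no annotated gene. Those of Polk and Sesn1 lie inside introns of these genes, before an alternative start, and that of Bax lies inside the gene span of Gm45808, outside its exons. Over the 250 bases before each annotated start, 11 of 36 windows of members (30.6%) held an exact 10-base match, against 2341 of 32851 windows of all genes (7.13%). Of the 11 members with such a match, 5 rose in Sox10ko (Cdkn1a, Ccng1, Mdm2, Polk and Sesn1), Trp53 fell, and Bax, Aen, Ei24, Gadd45a and Ppm1d did not pass. A pair of copies was present in 4 of the 36 windows (11.1%) and in 0.551% of all windows. The windows belong to 27 members, and the genes were known for their response to p53, so these shares describe the list and are no result of the cultures. Cdkn1a and Ccng1 held pairs with 1 mismatch, Bax and Trp73 pairs with 2. The windows of Fas, Gdf15, Btg2, Bbc3 and Tigar, which rose in Sox10ko, held no match, which says only that these letters are not in the 250 bases searched.

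Among the p53 genes, more were higher than lower in Sox10ko. Of the 32 members with enough reads to be tested, 13 were higher and 1 was lower, while 18 did not pass (edgeR, quasi-likelihood test, with p adjusted by Benjamini-Hochberg over 15427 genes and a threshold of 0.05). Among all tested genes 32.0% were called, 17.3% as higher and 14.7% as lower. The shares among the tested members were 40.6% higher and 3.12% lower, a description with no test of the list. The median log2 fold change of Sox10ko over control was 0.43 over the tested members and 0.02 over all tested genes. The libraries of the groups did not overlap in 20 members, 15 of them higher and 5 lower in Sox10ko (62.5%), where 49.3% of all tested genes showed no overlap. Trp63 and Gdf15 had enough reads for the filter on low counts only in Sox10ko libraries, so that their direction was set by it. Among the 29 members that passed this filter in all control libraries, 11 were higher and 1 was lower, beside 14.2% and 16.5% of 13822 genes. DESeq2 called 15 members and 2934 of all genes higher, and limma-voom 14 and 2567. Without control replicate 3, 7 members were higher by edgeR. The calls over all genes then dropped to 1523 higher and 1346 lower, against 2664 and 2275 with it.

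**Figure D1:**
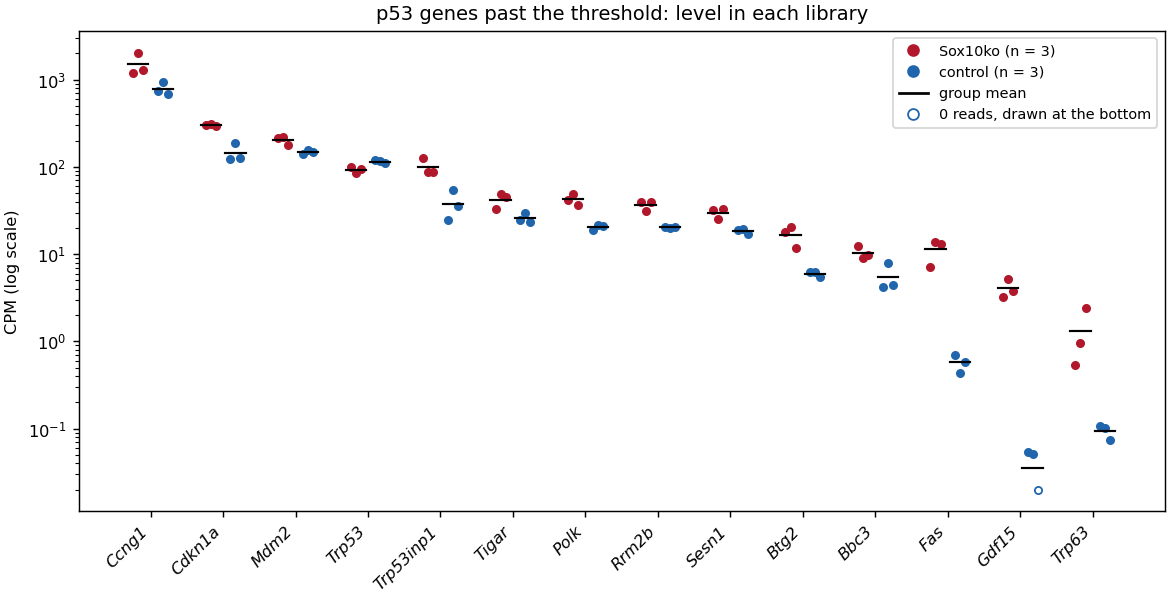
Level in CPM (log scale) of the 14 p53 genes past the threshold in each of the 3 Sox10ko and 3 control libraries, with a line at each group mean and an open circle for a library with 0 reads. Sox10ko points lie above all control points for 13 genes, and below them for Trp53 alone.

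Trp53 (chromosome 11, 69580359 to 69591873 in GRCm38) was well expressed in both groups. It stood at 98.7, 84.8 and 93.6 CPM in Sox10ko and at 119, 116 and 110 CPM in control. All 3 Sox10ko libraries lay below all control libraries, and the fall to 80.2% of the control mean passed the test (log2 fold change -0.32 ± 0.09 SE, edgeR adjusted p = 0.0382). That call was fragile. It was lost by edgeR without Sox10ko replicates 2 (adjusted p = 0.0895) or 3 (0.0628), without any of control replicates 1 (0.101), 2 (0.0827) or 3 (0.0778), and with scaling by library size alone (0.0764). The fitted fall stayed between -0.37 and -0.26 on the log2 scale over all 14 alternatives.

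The relatives of p53 were scarce. Trp63, a factor of basal epithelia that binds the same response element, had 18, 41 and 98 reads in Sox10ko against 4, 4 and 3 in control. In CPM this was 0.539, 0.962 and 2.44 in Sox10ko and 0.108, 0.102 and 0.0732 in control. Every Sox10ko library lay above the controls, and the Sox10ko libraries differed more among themselves than the controls did. Trp63 had enough reads for the filter on low counts only in Sox10ko libraries, which set its direction. The fitted rise was 13.6-fold (log2 fold change 3.76 ± 0.67 SE, edgeR adjusted p = 0.00563) and 7.74-fold without Sox10ko replicate 3. Even so, Trp63 reached 0.157 CPM per kilobase of exon in Sox10ko, where Trp53 had 22.8. Trp73 had 0 reads in Sox10ko and 3 in control and was not tested.

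Among the 4 genes that feed back on p53, those for Mdm2 and cyclin G1 rose and the other 2 did not pass. The share called was 50%, beside 32.0% of all tested genes. Mdm2 (chromosome 10, 117688875 to 117710758), the ligase that marks p53 for destruction, stood at 214, 222 and 179 CPM in Sox10ko and 141, 158 and 148 CPM in control. The rise of 1.38-fold was small but larger than the spread (log2 fold change 0.46 ± 0.11 SE, edgeR adjusted p = 0.0188). It no longer passed by edgeR without Sox10ko replicate 2 (adjusted p = 0.0549) or control replicates 1 (0.0852) or 3 (0.0892). Ccng1 (chromosome 11, 40748552 to 40755311), which encodes cyclin G1, a partner of a phosphatase that activates Mdm2, was the most abundant member per length, at 426 CPM per kilobase in Sox10ko and 223 in control. Its levels were 1186, 2018 and 1281 CPM in Sox10ko and 735, 934 and 683 CPM in control, without overlap, and Sox10ko replicate 2 stood far above the rest. It rose 1.91-fold (log2 fold change 0.93 ± 0.23 SE, edgeR adjusted p = 0.0191). The call was lost when control replicate 1 (edgeR adjusted p = 0.0753) or 3 (0.0880) was left out.

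Mdm4, the partner that blocks the activating part of p53, pointed the other way. It had 101, 116 and 97.7 CPM in Sox10ko and 144, 118 and 145 CPM in control, without overlap, and just missed the threshold (log2 fold change -0.37 ± 0.12 SE, edgeR adjusted p = 0.0520). It passed as lower with DESeq2 (adjusted p = 0.0208), with DESeq2 size factors (edgeR adjusted p = 0.0462), and without Sox10ko replicate 2 (0.0356) or control replicate 2 (0.0328). On chromosome 1, where Mdm4 lies, the median gene had a log2 fold change of -0.12, and with chromosome medians removed Mdm4 passed as lower (log2 fold change -0.25, edgeR adjusted p = 0.0283). Ppm1d, which encodes the phosphatase Wip1, had 68.0, 68.7 and 70.4 CPM in Sox10ko and 73.4, 72.6 and 75.2 CPM in control. Its groups lay close together without overlap, and it did not pass (95% interval of the log2 fold change -0.28 to 0.09).

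Of the 7 arrest and growth genes, 3 were higher and 0 lower by edgeR and by DESeq2, with 3 at an unadjusted p under 0.05 by edgeR. The share called was 42.9%, beside 32.0% of all tested genes, of which 6684 of 15427 had an unadjusted p under 0.05. Gdf15, among those called, had enough reads for the filter on low counts only in Sox10ko libraries. Cdkn1a (chromosome 17, 29090976 to 29100727), which encodes p21, the inhibitor of cyclin-dependent kinases that carries the arrest, stood at 299, 314 and 292 CPM in Sox10ko and 123, 186 and 127 CPM in control. The Sox10ko libraries agreed within a narrow range and all lay above the highest control, replicate 2. The rise was 2.08-fold (log2 fold change 1.05 ± 0.17 SE, edgeR adjusted p = 0.00368) and passed under all 14 alternatives, with adjusted p between 4.11e-07 by DESeq2 and 0.0260 by edgeR. Exons of Cdkn1a share 273 of 3553 bases with a transcript on the opposite strand, which is not listed in the count tables.

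Btg2, an antiproliferative gene, had 17.8, 20.3 and 11.8 CPM in Sox10ko and 6.21, 6.20 and 5.52 CPM in control. Its 2.78-fold rise (log2 fold change 1.48 ± 0.22 SE, edgeR adjusted p = 0.00274) also passed under all 14 alternatives. Gdf15 (chromosome 8, 70629393 to 70632456), a secreted stress cytokine, had 107, 221 and 153 reads in Sox10ko and 2, 2 and 0 in control. This corresponds to 3.21, 5.19 and 3.81 CPM in Sox10ko against 0.0542, 0.0512 and 0 CPM in control. The ratio of pooled CPM was 121, with an exact 95% counting interval of 47.0 to 446, and the fitted log2 fold change was 6.76 ± 0.58 SE (edgeR adjusted p = 0.000316), or 6.16 without control replicate 3. It was thus nearly silent in control and stayed a low transcript in Sox10ko, at 2.20 CPM per kilobase.

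The other 4 arrest and growth genes overlapped between the groups and did not pass. Gadd45a, a stress sensor of growth arrest, had 37.7, 28.0 and 53.2 CPM in Sox10ko and 19.1, 48.1 and 39.7 CPM in control, so that both groups spanned nearly the same range. Its exons share 337 of 1764 bases with E230016M11Rik on the opposite strand. The polo-like kinase gene Plk2 had 119, 61.8 and 107 CPM in Sox10ko and 90.6, 78.3 and 79.4 CPM in control. It passed as higher only without Sox10ko replicate 2, its lowest library (edgeR adjusted p = 0.0322). Its relative Plk3 had 11.9, 7.02 and 7.92 CPM in Sox10ko and 10.8, 11.5 and 11.9 CPM in control and passed as lower only without Sox10ko replicate 1 (edgeR adjusted p = 0.0286). Zmat3, an RNA-binding protein gene, had 108, 117 and 80.9 CPM in Sox10ko and 76.0, 101 and 78.9 CPM in control (95% interval of the log2 fold change -0.14 to 0.66).

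**Figure D2:**
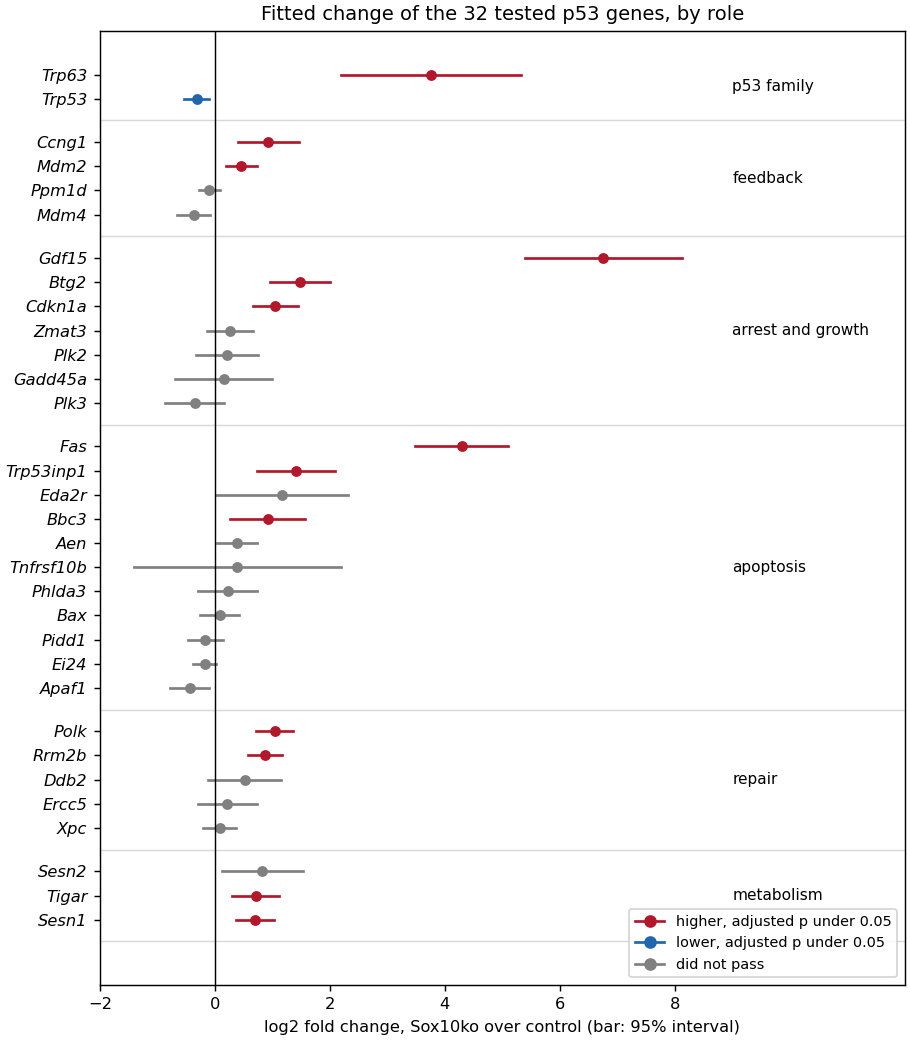
Fitted log2 fold change of Sox10ko over control for the 32 tested p53 genes, grouped by role, with 95% intervals as bars, red for genes past the threshold and higher, blue for lower and grey for those that did not pass. Gdf15 (6.76), Fas (4.29) and Trp63 (3.76) stand apart, and the other rises lie between 0.46 and 1.48. For Gdf15 and Trp63 the direction was set by the filter on low counts.

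Of the 13 apoptosis genes, 11 were tested, 3 were higher and 0 were lower by edgeR, with 6 at an unadjusted p under 0.05. The share called was 27.3%, near the 32.0% of all tested genes, of which 6684 of 15427 had an unadjusted p under 0.05. DESeq2 called 1 of them, Apaf1, as lower. Fas (chromosome 19, 34290666 to 34327772), the death receptor at the cell surface, had 7.19, 13.8 and 13.1 CPM in Sox10ko and 0.705, 0.435 and 0.586 CPM in control. The lowest Sox10ko library was still many times above the highest control. The rise was 19.6-fold (log2 fold change 4.29 ± 0.35 SE, edgeR adjusted p = 0.000244) and passed under all 14 alternatives, between 4.11 and 4.53 on the log2 scale. Trp53inp1, a nuclear protein gene that promotes p53-dependent death and autophagy, had 127, 88.3 and 87.7 CPM in Sox10ko and 24.8, 53.7 and 35.4 CPM in control. It rose 2.66-fold (log2 fold change 1.41 ± 0.29 SE, edgeR adjusted p = 0.00971), or with an adjusted p of 0.0534 by edgeR without control replicate 3.

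Bbc3, which encodes the BH3-only protein Puma, had 12.3, 9.15 and 9.89 CPM in Sox10ko and 4.26, 7.89 and 4.42 CPM in control. It rose 1.89-fold, close to the threshold (log2 fold change 0.92 ± 0.28 SE, edgeR adjusted p = 0.0416). The call was lost without Sox10ko replicate 1 (edgeR adjusted p = 0.102), 2 (0.0586) or 3 (0.0725) and when control replicate 1 (0.137) or 3 (0.154) was left out. Eda2r, a receptor of the tumour necrosis factor family, was split within Sox10ko, at 56.5, 46.6 and 15.5 CPM, against 12.3, 26.4 and 14.2 CPM in control. The overlap came from Sox10ko replicate 3, without which Eda2r passed as higher (log2 fold change 1.54, edgeR adjusted p = 0.0175, against 0.110 with all libraries); DESeq2 also called it (adjusted p = 0.0320). Aen, a nuclease gene of apoptosis, had 94.4, 127 and 90.7 CPM in Sox10ko and 81.0, 84.6 and 72.5 CPM in control, without overlap, and missed the threshold (log2 fold change 0.39 ± 0.15 SE, edgeR adjusted p = 0.0823).

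Bax and Apaf1, which act at and after the mitochondrion, did not pass. Bax, the pore-forming protein gene, had 156, 121 and 108 CPM in Sox10ko and 115, 127 and 122 CPM in control, where the control range lies inside that of Sox10ko (95% interval of the log2 fold change -0.25 to 0.42). Exons of Bax share 192 of 1576 bases with Gm45808 on the same strand. Apaf1, the scaffold of the apoptosome, had 36.5, 32.7 and 26.7 CPM in Sox10ko and 40.3, 48.7 and 40.8 CPM in control. Its groups did not overlap, and it missed the threshold as lower (log2 fold change -0.44 ± 0.15 SE, edgeR adjusted p = 0.0570), passing with DESeq2 (adjusted p = 0.0267), without Sox10ko replicate 1 (edgeR adjusted p = 0.0351) and with chromosome medians removed (0.0376). Ei24, an endoplasmic reticulum gene of autophagy, had 76.3, 77.6 and 79.3 CPM in Sox10ko and 85.5, 94.2 and 84.3 CPM in control, without overlap, and did not pass (edgeR adjusted p = 0.160). Pidd1, a scaffold of caspase-2 activation, had 19.3, 22.8 and 20.1 CPM in Sox10ko and 23.7, 25.2 and 20.7 CPM in control. Phlda3, an inhibitor of Akt, had 138, 200.4 and 164 CPM in Sox10ko and 174, 103 and 154 CPM in control, and neither of these passed.

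Some death genes had few or no reads in these cultures. Tnfrsf10b, the mouse TRAIL receptor gene, had 12, 6 and 17 reads in Sox10ko and 15, 1 and 11 in control. Perp, a membrane protein gene of desmosomes and apoptosis, had 1 read in Sox10ko and 2 in control. Pmaip1 (chromosome 18, 66458533 to 66465565), which encodes the BH3-only protein Noxa, had 0 reads in all 6 libraries, out of 233357118 counted reads. A count of 0 allows up to 0.0258 CPM in Sox10ko and 0.0257 CPM in control (3 reads over each group, counting error only). Genes nearby on the chromosome were read: Lman1 averaged 196 ± 38.5 CPM in Sox10ko and 224 ± 14.2 CPM in control (SD, n = 3 each), and Malt1 26.2 ± 2.15 CPM in Sox10ko and 22.9 ± 2.15 CPM in control. These genes were chosen after their values were seen.

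Of the 5 DNA repair genes, 2 were higher and 0 lower by edgeR and by DESeq2, with 2 at an unadjusted p under 0.05 by edgeR. The share called was 40%, beside 32.0% of all tested genes, of which 6684 of 15427 had an unadjusted p under 0.05. Polk (chromosome 13, 96480690 to 96542579), a polymerase that copies past damaged bases, had 41.3, 49.5 and 36.4 CPM in Sox10ko and 19.1, 21.5 and 21.2 CPM in control. The groups were clearly apart, with a rise of 2.06-fold (log2 fold change 1.04 ± 0.14 SE, edgeR adjusted p = 0.00166). Rrm2b, the p53-inducible subunit of ribonucleotide reductase that supplies nucleotides for repair, had 39.9, 31.3 and 40.0 CPM in Sox10ko and 20.7, 19.7 and 20.6 CPM in control. It rose 1.82-fold (log2 fold change 0.86 ± 0.13 SE, edgeR adjusted p = 0.00248), and both genes passed under all 14 alternatives. Exons of Rrm2b share 734 of 9134 bases with the antisense gene Gm49085.

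The nucleotide excision repair genes did not pass. Ddb2, which recognises damage from ultraviolet light, had 6.05, 5.21 and 3.19 CPM in Sox10ko and 3.33, 3.66 and 3.10 CPM in control (edgeR adjusted p = 0.188, or 0.0410 without Sox10ko replicate 3). Its exons share 652 of 2736 bases with Acp2 on the opposite strand. Xpc, the other damage sensor, had 27.0, 31.0 and 31.9 CPM in Sox10ko and 25.5, 31.8 and 27.7 CPM in control (95% interval of the log2 fold change -0.21 to 0.37). The endonuclease gene Ercc5 had 36.5, 51.2 and 26.7 CPM in Sox10ko and 33.9, 31.7 and 33.1 CPM in control, with the controls inside the wider Sox10ko range.

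Of the members that act on metabolism and growth signalling, 2 of the 3 tested were higher, and the groups did not overlap for any of these 3. The share called was 66.7%, beside 32.0% of all tested genes, of which 49.3% showed no overlap. Sesn1, a sestrin that restrains mTORC1, had 32.1, 25.1 and 32.7 CPM in Sox10ko and 19.1, 19.4 and 16.9 CPM in control. It rose 1.62-fold (log2 fold change 0.70 ± 0.14 SE, edgeR adjusted p = 0.00900), or with an edgeR adjusted p of 0.0537 without control replicate 3. Tigar, a phosphatase that diverts sugar from glycolysis, had 32.7, 48.6 and 45.1 CPM in Sox10ko and 24.6, 29.5 and 23.1 CPM in control. Its 1.64-fold rise (log2 fold change 0.71 ± 0.17 SE, edgeR adjusted p = 0.0195) was lost by edgeR without Sox10ko replicates 2 (adjusted p = 0.0547) or 3 (0.0536) and control replicates 1 (0.0760) or 3 (0.0900). Sesn2, a sestrin that also answers to amino acid and oxidative stress, was even in Sox10ko at 42.6, 39.6 and 40.7 CPM and spread in control at 13.6, 34.5 and 21.1 CPM. The groups did not overlap, and the adjusted p was 0.0735 by edgeR, 0.0263 by DESeq2, 0.0458 by limma-voom and 0.0111 by edgeR without control replicate 2. Dram1, an autophagy gene, had 7, 16 and 8 reads in Sox10ko and 7, 6 and 7 in control, too few to test.

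Control replicate 2 held the highest control level of many members, a pattern noticed after the values were seen. Of the 28 members that averaged 5 CPM or more, 18 were highest in this library among the controls (64.3%), where it was highest for 37.6% of 10236 genes at that level. Cdkn1a, Bbc3, Trp53inp1, Sesn2, Eda2r and Gadd45a are among them, with the values given above. Control replicate 3 was highest for 3 members and control replicate 1 for 7. In Sox10ko, replicate 2 was highest for 13 members (46.4%, against 30.6% of genes), replicate 1 for 9 and replicate 3 for 6. Without control replicate 2, 14 members were called higher, 13 of them shared with the 13 called with all libraries, and Sesn2 was the addition. Over all genes 2030 were then called higher, against 2664 with all libraries. Since this library was singled out for its high member levels, the count without it is no independent support.

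**Figure D3:**
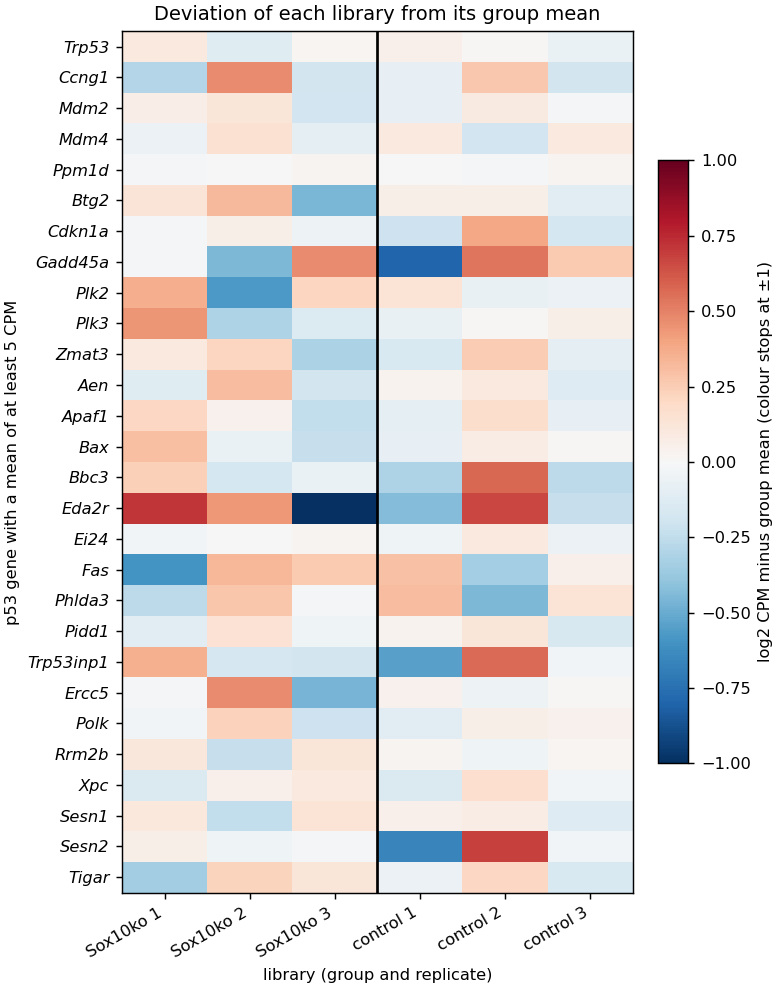
Deviation of each library from its group mean in log2 CPM (colour, stopping at ±1) for the 28 p53 genes that averaged 5 CPM or more, ordered by role, with the 3 Sox10ko libraries left of the line and the 3 control libraries right of it. Control replicate 2 is the highest control for 18 genes, and Eda2r varies most within Sox10ko.

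Further genes known to respond to p53 changed in both directions. Of 45 such genes listed, 39 were tested, 15 were higher (38.5%) and 10 lower (25.6%), with a median log2 fold change of 0.29, beside 17.3% higher and 14.7% lower among all tested genes. Pltp, a phospholipid transfer protein gene, had 38.8, 36.5 and 28.6 CPM in Sox10ko and 2.93, 3.02 and 3.17 CPM in control, a rise of 11.4-fold (edgeR adjusted p = 4.14e-05). Ephx1, a detoxifying epoxide hydrolase gene, averaged 845 ± 15.2 CPM in Sox10ko and 433 ± 2.85 CPM in control (SD, n = 3 each; edgeR adjusted p = 0.000346). Against these, the cytokine gene Lif averaged 2.52 ± 0.217 CPM in Sox10ko and 18.1 ± 2.90 CPM in control, a fall of 7.16-fold (edgeR adjusted p = 0.000122). The receptor gene Notch1 fell 13.2-fold (edgeR adjusted p = 0.000384). The groups did not overlap for these 4 genes, which were named for a low adjusted p, so this adds no support. Of the tested genes in this list 69.2% showed no overlap, beside 49.3% of all tested genes.

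Of 35 listed genes that control p53 or act with it, 32 were tested, 7 were lower and 2 higher, with a median log2 fold change of -0.09. The share called was 28.1%, near the 32.0% of all tested genes. Without control replicate 1 the lower calls numbered 4, and without control replicate 3 the higher calls numbered 0. Ppp1r13b, which encodes the p53 cofactor Aspp1, averaged 18.8 ± 1.85 CPM in Sox10ko and 33.9 ± 2.30 CPM in control (SD, n = 3 each; edgeR adjusted p = 0.00209). Its inhibitory relative Ppp1r13l (iAspp) averaged 27.1 ± 7.03 CPM in Sox10ko and 14.2 ± 2.24 CPM in control (edgeR adjusted p = 0.0154, or 0.0588 without control replicate 2 and 0.0732 without control replicate 3). The damage kinase genes Chek1 and Atm fell 1.70-fold (edgeR adjusted p = 0.00617) and 1.31-fold (0.0119). Tbx3, a repressor of the Arf gene, fell 1.95-fold (edgeR adjusted p = 0.0127). Hipk2, a kinase that activates p53 for apoptosis, rose 1.93-fold (edgeR adjusted p = 0.0135), a call lost when control replicate 1 (0.0574) or 3 (0.0616) was left out.

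Cdkn2a (chromosome 4, 89274471 to 89294653), the gene of Arf and of the cell cycle inhibitor p16, had 0 reads in all 6 libraries, a gene named here after its values were seen. A count of 0 allows up to 0.0258 CPM in Sox10ko and 0.0257 CPM in control. Nearby, Cdkn2b had 11 reads in Sox10ko and 15 in control. Mtap, also nearby, was abundant, at 343 ± 14.1 CPM in Sox10ko and 414 ± 111 CPM in control (SD, n = 3 each). Counts per gene do not tell a deleted locus from a silent one, and this was not tested.

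Cell cycle genes of the kind that are repressed downstream of p53 and p21 were lower where they passed. Of 34 listed and tested, 19 were lower and 0 higher by edgeR, with 28 at an unadjusted p under 0.05, and the median log2 fold change was -0.50. The lower share was 55.9%, beside 14.7% of all tested genes. Over all tested genes, 6684 of 15427 had an unadjusted p under 0.05. In this list DESeq2 called 0 higher and 27 lower, beside 2756 lower over all genes. With limma-voom these were 0 and 21, beside 2292 lower over all genes. The lower calls of the list numbered 9 without control replicate 1 or 3 and 12 without Sox10ko replicate 1. E2f2 and Mybl2, transcription factors of cell cycle entry, averaged 12.1 ± 1.09 and 25.1 ± 3.84 CPM in Sox10ko, against 22.7 ± 1.10 and 47.9 ± 6.66 CPM in control (SD, n = 3 each; edgeR adjusted p = 0.00199 and 0.00439). Plk4, which starts centriole duplication, fell 1.60-fold (edgeR adjusted p = 0.00243), Pcna, the sliding clamp of replication, 1.67-fold (0.00606), and Prc1, a spindle midzone protein, 1.71-fold (0.00879). These falls and the rise of Cdkn1a were measured in the same cultures, and whether one depends on the other was not tested.

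**Figure D4:**
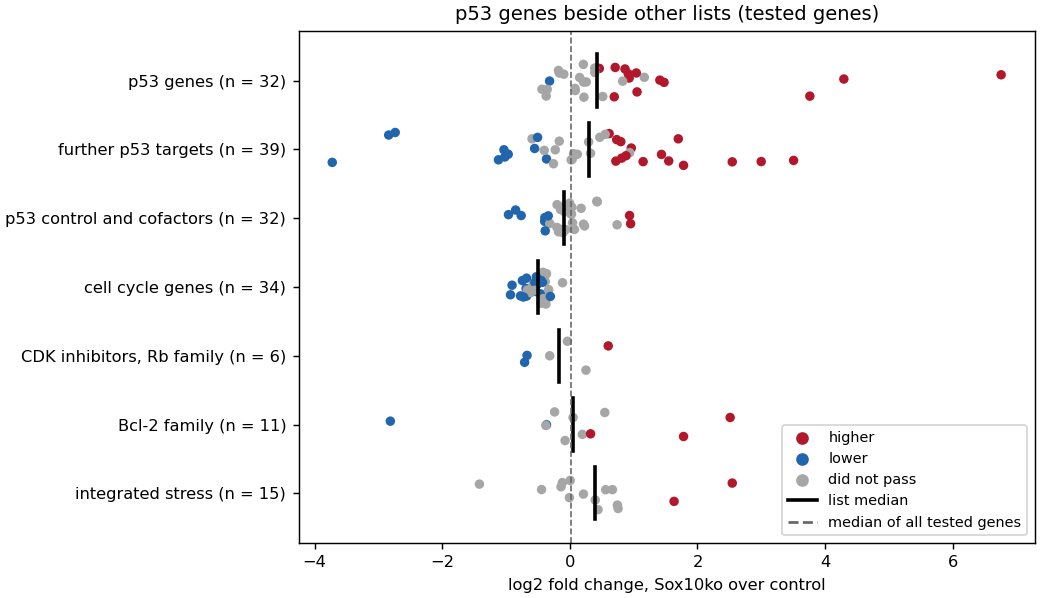
Fitted log2 fold change of Sox10ko over control for the tested genes of 7 lists, 1 dot per gene, red for higher, blue for lower and grey for genes that did not pass, with a black bar at each list's median and a dashed line at the median of all tested genes (0.02). The p53 genes have a median of 0.43 and the cell cycle genes of -0.50.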

How the data were processed

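Poly(A) RNA was profiled in 3 Sox10ko and 3 control cultures, with a stranded mRNA kit per the labels' protocols. The authors deposited whole-number read counts per Ensembl gene ID, 1 table per library. The submitters' processing notes name HTSeq, DESeq2 and STAR 2.6.0c, and the builds mm10 and GRCm38. What each tool did, and with which annotation and strand setting, is not given in the sources used here. Counts of genes that overlap others on either strand are therefore uncertain, and reads of near-identical genes may be lost.

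Symbols matched 54042 of 54109 IDs, and coordinates and exon lengths are those of GENCODE M21. Genes were filtered with filterByExpr, scaled with TMM and tested with the quasi-likelihood test of edgeR 4.0.16 in R 4.3.3, for Sox10ko against control over all 6 libraries with no covariate, two-sided, at an adjusted p of 0.05. SE is the log2 fold change divided by the root of the F statistic. Replicates differed by more than sampling noise (chi-square per degree of freedom 26.5 to 91.2). One read was worth 0.0235 to 0.0300 CPM, and intervals from reads cover counting error only, since reads lacking molecular identifiers are no independent molecules.

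The members and lists were chosen with earlier results of these data known. All members were described; from each further list the text names at most 5 called genes, by lowest adjusted p, and at most 2 that moved against the list's main direction; 1 gene that this rule picks is not reported here. Of 228 listed symbols, 225 matched 1 ID. The alternatives were other scalings (DESeq2 size factors, library size), no filter, a filter at a mean of 5 CPM, limma-voom (limma 3.58.1), DESeq2 1.42.0, a replicate block, removal of each library's chromosome medians, and leaving out each library.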

Additional observations from a re-analysis of the deposited data

How the results depend on the processing

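Over 14 alternatives the 32 tested members gave 444 values, of which 393 kept their direction and their side of the threshold, 25 lost a call, 20 gained one and 6 changed sign. The sign changed only for members that had not passed, when 1 library was left out: the log2 fold change then ranged over -0.169 to 0.414 for Gadd45a (-0.13 without Sox10ko replicate 3, -0.169 without control replicate 1), -0.0852 to 0.187 for Bax, -0.15 to 1.01 for Tnfrsf10b, -0.0103 to 0.154 for Xpc and -0.0666 to 0.408 for Ercc5. Calls of Cdkn1a, Btg2, Gdf15, Fas, Trp63, Polk and Rrm2b held under every alternative that tested them. A mean of at least 5 CPM removes Trp63 and Gdf15. Where filterByExpr was used, Trp63 and Gdf15 entered only through their Sox10ko libraries, so that their direction was set by the filter. With 1 library left out, the calls ran from 1523 to 2531 higher and from 1346 to 2188 lower over all genes, and from 7 to 14 higher and 0 to 3 lower among the members. By role these were 1 to 1 higher and 0 to 1 lower for the p53 family, 0 to 2 and 0 to 1 for feedback, 3 to 4 and 0 to 1 for arrest, 1 to 3 and 0 to 1 for apoptosis and 0 to 3 and 0 to 0 for metabolism. They were 0 to 3 higher and 4 to 6 lower for control of p53, 0 to 0 and 9 to 27 for cell cycle genes, 0 to 1 and 2 to 3 for CDK inhibitors, 2 to 3 and 0 to 1 for the Bcl-2 family, and 1 to 5 and 0 to 1 for the integrated stress list. The members called lower numbered 1 in the main test, 2 with DESeq2 size factors, 3 with DESeq2, with no filter or with chromosome medians removed, and 0 with library size alone, with a mean of at least 5 CPM or with the replicate block. Trp53, the 1 lower gene of its family, was not called (0) with library size alone, a mean of at least 5 CPM (where the higher count is also 0) or the replicate block. In feedback 1 gene was lower with DESeq2 size factors, DESeq2, no filter or chromosome medians removed, and in apoptosis 1 with the last 3 of these. The Bcl-2 family had 1 lower gene with library size alone, a mean of at least 5 CPM or the replicate block, and the integrated stress list had 4 higher and 1 lower with no filter, 5 higher with DESeq2 or chromosome medians removed and 1 with the replicate block. The cause was not tested. Library size alone made 60.9% of all calls higher, against 53.9% with TMM.

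Same-numbered libraries of the groups did not deviate together (correlations -0.21, -0.10 and 0.07 over 10236 genes). Differently numbered libraries had correlations from -0.12 (Sox10ko replicate 2 with control replicate 3) to 0.19 (Sox10ko replicate 2 with control replicate 1). Deviations from the mean of only 3 libraries cannot decide whether cultures were paired, and the labels do not say. With the replicate block 12 members were higher, Bbc3 was lost (edgeR adjusted p = 0.0750), and the block left 9 lower cell cycle genes, 3 lower genes of p53 control and 0 higher CDK inhibitor genes. Of 363 values of 26 genes picked from the other lists, 30 lost their call and 0 changed sign. Few reads limit Trp73, Perp, Dram1 and Tnfrsf10b, where a difference was not detectable. Pmaip1 had 0 reads in every library. Counts per gene do not tell a deleted, a silent and an uncounted gene apart, and this was not tested.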

Other observations

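Genes of the Bcl-2 family outside the p53 list changed in both directions, with 3 higher and 2 lower of 11 tested and a median log2 fold change of 0.05. The share called was 45.5%, beside 32.0% of all tested genes. Bmf, a BH3-only gene of detached cells, had 45.8, 42.0 and 38.6 CPM in Sox10ko and 5.48, 8.25 and 8.40 CPM in control, a rise of 5.71-fold (edgeR adjusted p = 0.000204). Bid, the BH3-only gene that links death receptors such as Fas to mitochondria, also stood in the list of further p53 targets. It averaged 98.0 ± 13.8 CPM in Sox10ko and 28.5 ± 9.32 CPM in control (SD, n = 3 each), a rise of 3.44-fold (edgeR adjusted p = 0.00189). The groups did not overlap for either gene, and both were named for a low adjusted p, so this adds no support. Of the tested genes in this list 45.5% showed no overlap, beside 49.3% of all tested genes. Bak1, the partner of Bax in pore formation, rose 1.25-fold (edgeR adjusted p = 0.0248), and Bcl2l1, which encodes the survival protein Bcl-xL, fell 1.29-fold (edgeR adjusted p = 0.0280). By edgeR, Bak1 no longer passed when Sox10ko replicate 2 (adjusted p = 0.0502) or 3 (0.0633) or control replicate 1 (0.0994), 2 (0.0523) or 3 (0.118) was left out. Bcl2l1 no longer passed by edgeR without Sox10ko replicate 3 (adjusted p = 0.0621) or control replicates 2 (0.0775) or 3 (0.0861). Bik had 13 reads in Sox10ko and 93 in control, a fitted fall of 7.03-fold (edgeR adjusted p = 0.0247) or 11.8-fold without Sox10ko replicate 3. By edgeR it did not pass without Sox10ko replicates 1 (adjusted p = 0.0580) or 2 (0.0666) or control replicates 1 (0.0787) or 3 (0.0876).

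The integrated stress response is a pathway that also acts on Gdf15 and Sesn2. Of its 15 tested genes, 2 were higher and 0 lower by edgeR, with 8 at an unadjusted p under 0.05, while DESeq2 called 5 higher and 0 lower. The median log2 fold change of its tested genes was 0.40, beside 0.43 for the tested p53 genes. The share of this list called by edgeR was 13.3%, below the 32.0% of all tested genes. Of all tested genes, 6684 of 15427 had an unadjusted p under 0.05 by edgeR, and DESeq2 called 2934 higher and 2756 lower. By edgeR 5 genes of this list were higher without Sox10ko replicate 2, and 1 without Sox10ko replicate 1 or 3 or control replicate 1. Nupr1, a stress protein gene that also stands among the further p53 targets, averaged 28.9 ± 10.5 CPM in Sox10ko and 4.93 ± 1.95 CPM in control (SD, n = 3 each; edgeR adjusted p = 0.00329). Trib3, a pseudokinase gene, had 34.1, 19.1 and 40.8 CPM in Sox10ko and 4.50, 15.5 and 10.3 CPM in control, with the highest control value again in replicate 2. It rose 3.10-fold (edgeR adjusted p = 0.0312), a call lost without Sox10ko replicate 1 (0.0665) or 3 (0.0820) or control replicate 1 (0.0543) or 3 (0.104).

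Of 8 other listed cell cycle inhibitor genes, 6 were tested, 2 were lower, 1 was higher and 3 did not pass. Their median log2 fold change was -0.18, and 50% were called, beside 32.0% of all tested genes. Rbl1, a relative of the retinoblastoma gene, fell 1.59-fold (edgeR adjusted p = 0.00757) and Cdkn2c, which encodes p18, fell 1.63-fold (edgeR adjusted p = 0.0132). Rbl2, a relative that works in quiescent cells, averaged 37.5 ± 4.46 CPM in Sox10ko and 24.7 ± 4.10 CPM in control (SD, n = 3 each; edgeR adjusted p = 0.0229). By edgeR it did not pass without Sox10ko replicate 1 (adjusted p = 0.0587) or control replicates 1 (0.0828) or 3 (0.0954).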
